A study of Mus musculus with 9 samples.

Results

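Genes of the proteasome and its regulators were examined in the hearts of 4 RORasg/sg mice and 5 wild-type (WT) mice. The members were all mouse symbols beginning with Psma to Psmg and a digit that an accession on the array resolved to, and 50 of the 27775 genes tested met that rule, each with a probe that passed the filter on dim signals. Of these, 48 encode proteasome subunits, activators, inhibitors or assembly factors. The other 2 match by name alone: Psmc3ip encodes a meiotic recombination factor and Psme3ip1 a protein that binds the activator encoded by Psme3. A further 7 matching symbols had no probe matched to them, 6 of them pseudogenes and the other Psme2b.

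The RORasg/sg mice are homozygous for staggerer, a germline deletion within Rora, which encodes the nuclear receptor RORalpha. The mutation is carried in every tissue, so heart and systemic effects are not separated by the design, and the labels do not say whether the WT mice were littermates. All animals were untreated males labelled C57BL/6, 3 to 4 months old, kept on a normal diet (NIH31). Total RNA from each heart was amplified, labelled with Cy3 and read on an Agilent array of 1 colour. By its title the study concerns the role of RORalpha in enlargement of the heart.

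The proteasome degrades proteins that carry ubiquitin chains. Its 20S core is a barrel of outer alpha rings and inner beta rings, and Psmb5, Psmb6 and Psmb7 carry the peptidase sites. The 19S cap recognises ubiquitin, removes it and unfolds the substrate with a ring of ATPases. In cells exposed to interferon gamma, and constantly in many leukocytes, Psmb8, Psmb9 and Psmb10 take the places of Psmb5, Psmb6 and Psmb7 to form the immunoproteasome, which generates peptides for class I antigen presentation. In cardiomyocytes the proteasome turns over sarcomere proteins, and its subunits are known to be induced together by the transcription factor NRF1 (Nfe2l1) when proteolysis is limiting.

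All values below are log2 processed signal minus the array's 75th percentile unless stated otherwise, and differences are RORasg/sg minus WT on that scale, with tests by limma adjusted over all 27775 genes (threshold 0.05). The 75th percentile itself was between 264 and 773 in RORasg/sg hearts and between 436 and 684 in WT hearts. RORasg/sg 2, 3 and 4 and WT 4 were the arrays under 500, called the dimmer arrays here. Their median correlation across genes with the brighter WT arrays was 0.756 to 0.861 for those RORasg/sg hearts and 0.894 for WT 4, against 0.9615 for RORasg/sg 1. After scaling, the median difference of all genes was 0.41, and each value is to be read against that shift. Rora was lower in every RORasg/sg heart (-2.71 to 0.083) than in any WT heart (1.51 to 3.29). The 8 cardiomyocyte markers listed were well above background on every array, their summed scaled signal being 226 to 736 in RORasg/sg and 634 to 769 in WT hearts, with RORasg/sg 3 and 4 at 235 and 226. In whole heart RNA, fewer cells of a type and less RNA per cell cannot be told apart.

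The differences of the proteasome genes had a lower median than those of all genes, but 0 of 48 passed the threshold (background 0.0036% of all genes). On their own arrays the members lay below the all-gene median in RORasg/sg 2, 3 and 4, but above it (0.39) in RORasg/sg 1. The all-gene shares given here were not matched for signal level. Mean signal was lower in RORasg/sg for 34 of 48 members (70.8%, background 33.4%) and higher for 14 (29.2%, background 66.6%), and 41 of 48 lay below the all-gene median. The median difference was -0.37 over the 48 members, against 0.41 over all genes. At an unadjusted p under 0.05, 9 members were lower (18.8%, background 6.62%) and 0 higher (background 4.94%). Groups did not overlap for 1 member, Psma7, on the lower side (2.08%, background 1.71%) and for 0 on the higher side (background 1.12%). All 8 cardiomyocyte markers also had a lower mean in RORasg/sg hearts (median -1.14, 5 at an unadjusted p under 0.05), and their part in the proteasome values was not tested.

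**Figure D1:**
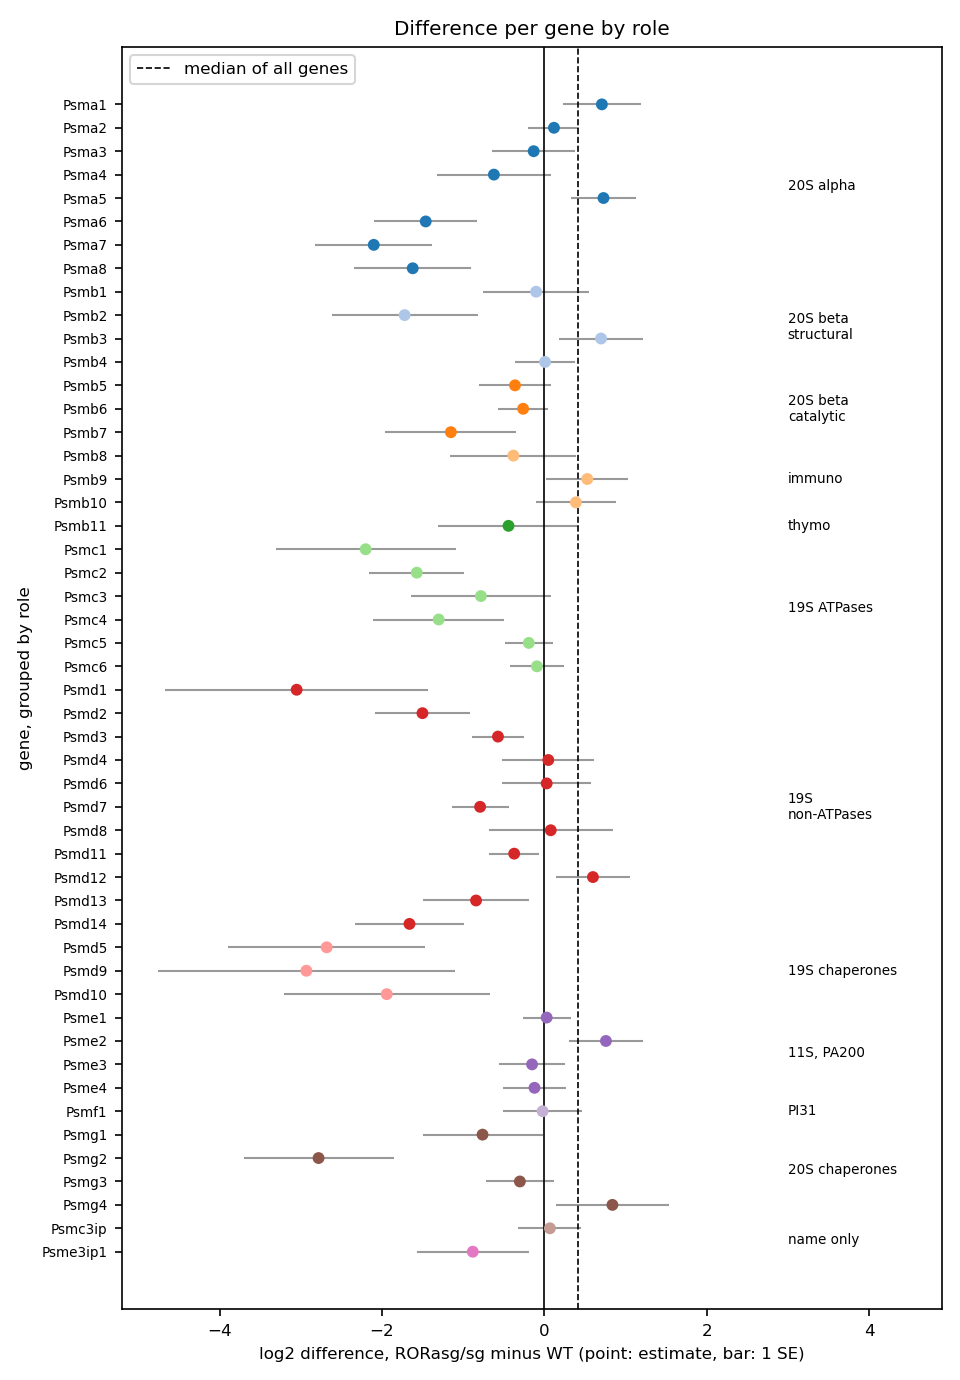
Log2 difference (RORasg/sg minus WT, x axis) of each of the 50 name-matched genes (y axis, grouped and coloured by role), with bars of 1 SE. The dashed line is the median of all genes (0.41), and most points lie to its left, with Psmd1 (-3.05) lowest and Psmg4 (0.84) highest.

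This low position was carried by 3 of the 4 RORasg/sg hearts. The median deviation of the 48 members from the WT mean was -0.01, -0.19, -0.56 and -0.59 in RORasg/sg hearts 1 to 4, and between -0.18 and 0.15 in WT hearts. Set against the median of all genes on the same array, the proteasome median was 0.39 above it in RORasg/sg 1, and at -0.75, -1.21 and -1.34 in RORasg/sg 2, 3 and 4. The same quantity lay between -0.24 and 0.23 in the WT hearts. RORasg/sg 1, the brightest array of its group, was above the WT range and the 3 dimmer RORasg/sg arrays were below it.

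**Figure D2:**
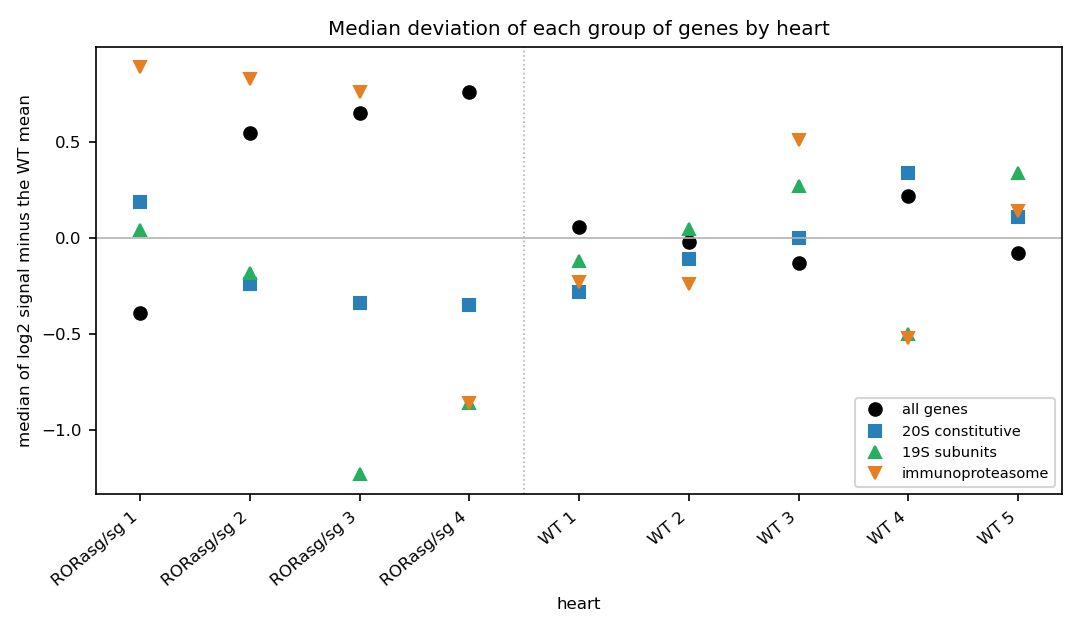
Median over the genes of each group of the log2 signal minus the WT mean (y axis) in each heart (x axis, RORasg/sg left of the dotted line), one symbol per gene group. In RORasg/sg 3 the 19S subunits stood at -1.23 and all genes at 0.65, while in RORasg/sg 1 they stood at 0.04 and -0.39.

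Within slide 1, which held hearts 1 and 2 of each genotype, the median of the 31 constitutive 20S and 19S subunits was 0.06, equal to that of all genes (0.06). Within slide 2, which held hearts 3 and 4 of each genotype, it was -0.78, where all genes had a median of 0.67. Over all 9 arrays the constitutive median was -0.37. With the log2 brightness of the array as a covariate it was -0.34 and the all-gene median 0.01. The constitutive median minus the all-gene median was thus -0.35 with the covariate, against -0.78 without it. Psmd1 went from -3.05 to -0.28, Psmc1 from -2.20 to -0.25 and Psmg2 from -2.78 to -1.57. With the covariate 16 of 48 members turned sign, and 34 had a negative difference in either fit.

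The fit without RORasg/sg 1 called 17 of 48 members, 4 higher (8.33%, background 28.5%) and 13 lower (27.1%, background 8.89%). The higher ones were Psma1 (1.24), Psma5 (1.02), Psmd12 (1.07) and Psme2 (1.19). Psmd12 and Psme2 each have another probe, well above background on every array, that gave a negative difference over all 9 arrays (-2.54 and -0.91). All 3 remaining RORasg/sg arrays are dimmer ones, against 1 of 5 in WT, so brightness and genotype cannot be told apart in that fit. The 5 brighter arrays, with RORasg/sg 1 as the lone mutant heart assumed to vary like the WT hearts, called 3 members higher (6.25%, background 1.29%) and 0 lower (background 2.99%), namely Psmc3 (1.96), Psmd4 (1.49) and Psmd9 (1.74). Both fits use WT 1, 2, 3 and 5. Psmc3 stood at -1.81 in the fit without RORasg/sg 1 and was called there in the opposite direction. Psmd9 was also called lower there, but its probe cleared background in 1 of 4 RORasg/sg hearts. The 3 RORasg/sg hearts in that fit read -6.90, -7.62 and -7.02, against 0.87 in RORasg/sg 1. The size of that difference is therefore not a measured fold. Array weights, which gave RORasg/sg 1 the lowest weight, called 7 members higher (14.6%, background 37.8%) and 19 lower (39.6%, background 16.7%).

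**Figure D3:**
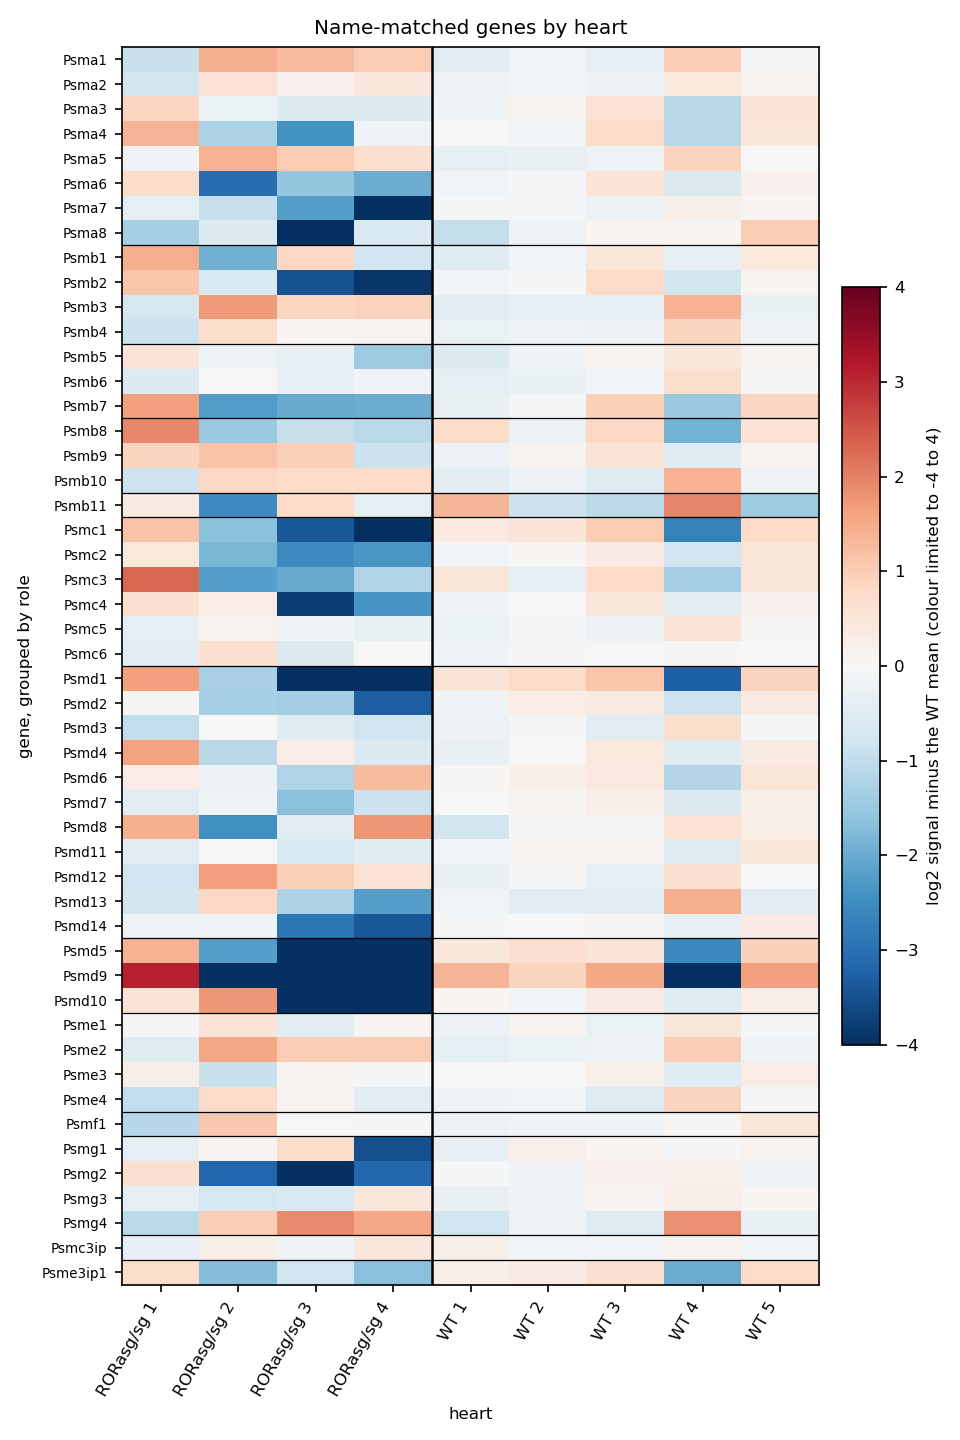
Log2 signal of each name-matched gene (rows, grouped by role) in each heart (columns, RORasg/sg left of the line) minus its WT mean, red above and blue below, with colours limited to -4 to 4. RORasg/sg 1 and the 3 other RORasg/sg hearts often have opposite colours, and WT 4 departs from the other WT hearts in genes such as Psmc1, Psmd1 and Psmd5.

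The catalytic subunits were compared in their exchange pairs, since in an immunoproteasome each inducible subunit stands in for one constitutive subunit. Promoter windows of the pairs Psmb8 with Psmb5 and Psmb9 with Psmb6 are shown because interferon and stress responses are read there. Capitals mark matches on either strand to CCAAT, to TGANNNNGC (the core of the antioxidant response element), to the core of the interferon-stimulated response element (GAAA repeated after a gap of 2 bases) or to the palindrome TTCNNNGAA (the GAS element). Each window runs from 250 bases before to 50 after the annotated start (RefSeq, GRCm38.p6), at chr17:34197945-34198244 (plus strand), chr14:54617946-54618245 (minus strand), chr17:34187281-34187580 (minus strand) and chr11:70525107-70525406 (plus strand), and is printed 5′ to 3′ on the gene's strand.
Psmb8 promoter: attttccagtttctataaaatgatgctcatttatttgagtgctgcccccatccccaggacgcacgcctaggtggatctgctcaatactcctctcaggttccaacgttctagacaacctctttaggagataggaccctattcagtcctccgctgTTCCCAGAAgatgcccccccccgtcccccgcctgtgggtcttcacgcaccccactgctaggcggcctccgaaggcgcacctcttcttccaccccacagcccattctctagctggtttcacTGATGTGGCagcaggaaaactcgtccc
Psmb5 promoter: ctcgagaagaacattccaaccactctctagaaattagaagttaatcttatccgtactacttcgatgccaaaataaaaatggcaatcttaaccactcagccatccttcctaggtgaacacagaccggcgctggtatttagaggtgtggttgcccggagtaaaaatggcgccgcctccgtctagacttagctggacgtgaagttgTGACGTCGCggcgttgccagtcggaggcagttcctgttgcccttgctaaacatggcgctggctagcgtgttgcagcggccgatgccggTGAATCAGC
Psmb9 promoter: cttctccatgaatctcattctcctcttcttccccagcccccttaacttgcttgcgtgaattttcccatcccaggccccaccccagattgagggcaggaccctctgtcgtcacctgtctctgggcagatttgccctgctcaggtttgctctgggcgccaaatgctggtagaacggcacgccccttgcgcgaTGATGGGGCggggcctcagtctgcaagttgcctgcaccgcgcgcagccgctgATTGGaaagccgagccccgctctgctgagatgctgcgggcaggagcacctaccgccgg
Psmb6 promoter: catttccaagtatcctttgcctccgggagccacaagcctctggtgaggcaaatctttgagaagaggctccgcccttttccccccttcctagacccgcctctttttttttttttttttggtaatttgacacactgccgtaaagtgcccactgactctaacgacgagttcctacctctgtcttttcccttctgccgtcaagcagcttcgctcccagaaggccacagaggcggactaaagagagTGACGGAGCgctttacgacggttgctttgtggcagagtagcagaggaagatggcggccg
The Psmb8 window held a GAS match that began 97 bases before the start and TGANNNNGC at base 24 of the transcript. TGANNNNGC also began 47 bases before the start and at base 42 of the transcript in Psmb5, 60 bases before the start in Psmb9 and 9 before it in Psmb6. A CCAAT box on the opposite strand began 8 bases before the start of Psmb9. The Psmb10 window held none of the 4 motifs.

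Across the 42 name-matched genes with a window, 25 held TGANNNNGC (41.3% of all 32851 windows), 16 held CCAAT (37.4%), 5 held the interferon-stimulated core (3.4%) and 3 held TTCNNNGAA (8.3%). Psma8, Psmb1, Psmb2, Psmb7, Psmc3, Psmd3, Psmd7 and Psmg2 had no window. For Psma6, Psmc2, Psme2 and Psme3ip1, which have windows at separate starts, a match in any of them counted. The shares are over single windows, so counts and shares are not on equal terms. A match describes letters only.

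Psmb8, the inducible chymotrypsin-like subunit, read 1.23, -2.20, -1.61 and -1.77 in RORasg/sg hearts 1 to 4 and 0.02, -0.94, 0.12, -2.60 and -0.11 in WT hearts 1 to 5. The groups overlapped, with RORasg/sg 1 highest and WT 4 lowest of the 9 hearts. The difference was -0.38 (SE 0.777, limma adjusted p = 0.763), and the second Psmb8 probe gave -0.40.

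Its constitutive counterpart Psmb5 read 3.37, 2.63, 2.51 and 1.41 in RORasg/sg hearts and 2.30, 2.71, 2.95, 3.30 and 2.95 in WT hearts. RORasg/sg 1 was again the highest heart, and RORasg/sg 4 the lowest. The difference was -0.36 (SE 0.449, limma adjusted p = 0.621). The within-heart log2 ratio of Psmb8 to Psmb5, in which array scaling cancels, averaged -3.57 ± 1.17 in RORasg/sg and -3.54 ± 1.41 in WT hearts (SD, n = 4 and n = 5).

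Psmb9, the inducible subunit that replaces Psmb6, read 1.69, 1.94, 1.76 and -0.07 in RORasg/sg hearts and 0.57, 0.90, 1.31, 0.27 and 0.93 in WT hearts. RORasg/sg 1, 2 and 3 were above every WT heart, and RORasg/sg 4 was below every one. The difference was 0.53 (SE 0.504, limma adjusted p = 0.526).

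Psmb6, which carries the caspase-like site, read 4.82, 5.41, 5.04 and 5.23 in RORasg/sg hearts and 5.01, 5.10, 5.27, 6.09 and 5.44 in WT hearts. It had the smallest SE of the 6 catalytic subunits, and WT 4 was its highest heart. The difference was -0.26 (SE 0.304, limma adjusted p = 0.605). The Psmb9 to Psmb6 ratio averaged -3.79 ± 1.02 in RORasg/sg and -4.58 ± 0.722 in WT hearts (SD, n = 4 and n = 5), with overlapping groups.

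Psmb10, the inducible trypsin-like subunit, read 3.32, 4.98, 4.91 and 4.95 in RORasg/sg hearts and 3.73, 3.91, 3.63, 5.54 and 3.95 in WT hearts. The 4 dimmer arrays were the 4 highest values, whichever the genotype. The difference was 0.39 (SE 0.492, limma adjusted p = 0.627).

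Psmb7, the constitutive trypsin-like subunit, showed the reverse order, at 4.28, 0.41, 0.63 and 0.67 in RORasg/sg hearts and 2.35, 2.61, 3.60, 1.16 and 3.51 in WT hearts. The 4 dimmer arrays were its 4 lowest values. The difference was -1.15 (SE 0.807, limma adjusted p = 0.438), and it was -2.07 (limma adjusted p = 0.0221) without RORasg/sg 1. The Psmb10 to Psmb7 ratio was -0.96, 4.58, 4.28 and 4.28 in RORasg/sg hearts and 1.38, 1.30, 0.03, 4.38 and 0.44 in WT hearts. WT 4 lay with RORasg/sg 2, 3 and 4 at the 4 highest ratios, and RORasg/sg 1 had the lowest of all. The 4 high ratios were those of the 4 dimmer arrays, and the part of brightness in them was not tested.

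**Figure D4:**
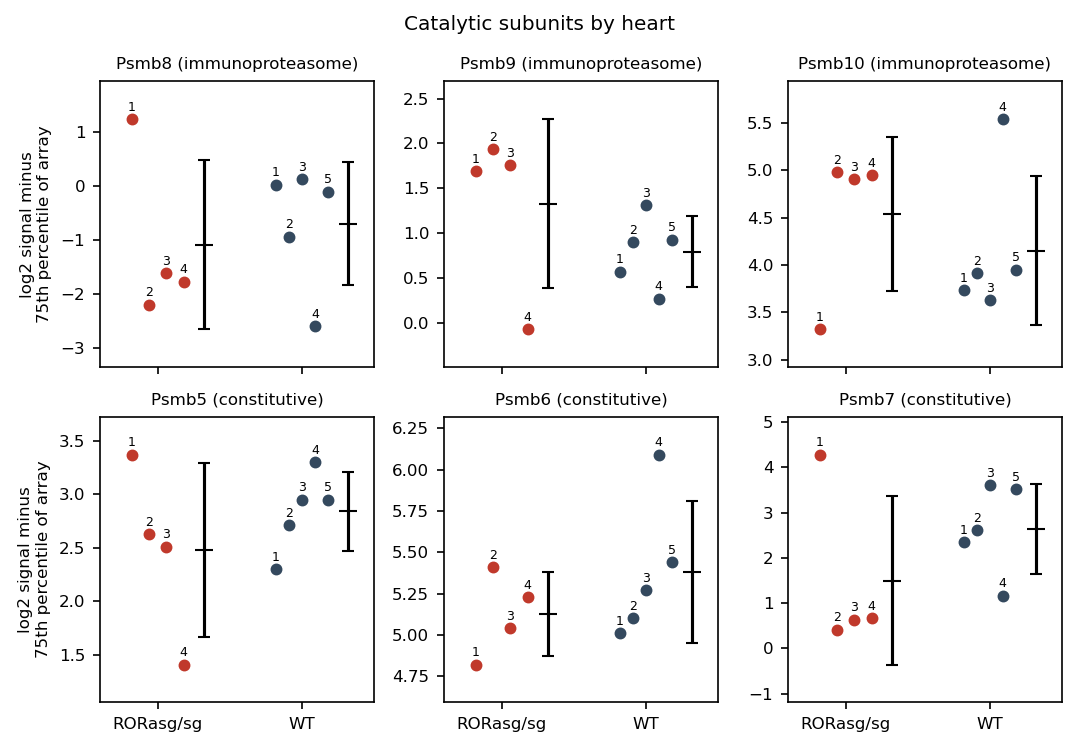
Log2 signal minus the array's 75th percentile (y axis) of the inducible subunits (top row) and the constitutive subunit each replaces (bottom row), with RORasg/sg hearts left and WT hearts right, numbered by replicate, and mean ± SD as black bars. The y axes differ between genes. Psmb10 is highest and Psmb7 lowest in RORasg/sg 2, 3 and 4 and WT 4.

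The median of the 3 immunoproteasome genes was 0.39, close to the all-gene median of 0.41, and 0 of 3 passed. Leukocytes express these subunits constantly, and the summed scaled signal of 11 leukocyte markers was 14.5 to 25.4 in RORasg/sg and 18.4 to 22.7 in WT hearts. At least 10 of the 11 were well above background on each array, and their part in the immunoproteasome values was not tested.

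Psmb11, the thymus-specific catalytic subunit, cleared background in 2 of 4 RORasg/sg and 4 of 5 WT hearts and differed by -0.44 (SE 0.869, limma adjusted p = 0.76). Its values were -4.09, -6.99, -3.70 and -4.82 in RORasg/sg hearts and -3.09, -5.33, -5.52, -2.50 and -5.88 in WT hearts, which overlapped.

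Of the 8 alpha ring genes, 3 had a higher and 5 a lower mean in RORasg/sg hearts (median -0.37). Psma7 had non-overlapping groups, with 5.48, 4.95, 3.66 and 0.98 in RORasg/sg hearts and 5.79, 5.81, 5.64, 6.11 and 5.96 in WT hearts. The RORasg/sg hearts spread over a far wider range than the WT hearts, and RORasg/sg 1 was only just below the lowest WT value. The difference was -2.10, 4.27-fold less in RORasg/sg (SE 0.723, limma adjusted p = 0.40). It was -1.16 without RORasg/sg 4, between -2.67 and -2.03 without any other array, and -1.24 with brightness as a covariate.

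Psma6 read 4.58, 0.82, 2.31 and 1.87 in RORasg/sg hearts and 3.76, 3.81, 4.40, 3.29 and 4.03 in WT hearts. RORasg/sg 1 exceeded every WT heart and the other 3 were below every one, for a difference of -1.46 (SE 0.635, limma adjusted p = 0.418). Psma8, known as the testis-specific alpha subunit, differed by -1.62. Its probe was well above background on every array, and what it reads in heart was not tested. Without RORasg/sg 3, which read -4.14, the Psma8 difference was -0.81, and without any other array between -1.98 and -1.37. The ring subunits Psma4 and Psma3 differed by -0.62 and -0.13. The other Psma4 probe gave -1.63, but cleared background in 3 of 4 RORasg/sg hearts. Psma1 (0.71), Psma5 (0.73) and Psma2 (0.12) were on the higher side, and within the RORasg/sg group Psma1 and Psma5 were lowest in RORasg/sg 1.

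Among the structural beta subunits, Psmb2 read 3.24, 1.55, -1.35 and -1.74 in RORasg/sg hearts and 2.05, 2.08, 2.92, 1.42 and 2.26 in WT hearts, a difference of -1.72 (SE 0.899, limma adjusted p = 0.418). RORasg/sg 1 was the highest of the 9 hearts and RORasg/sg 3 and 4 the lowest. Psmb3 went the other way, with 3.84, 6.22, 5.36 and 5.44 in RORasg/sg hearts and 4.09, 4.17, 4.18, 5.89 and 4.21 in WT hearts. RORasg/sg 1 was its lowest heart, and WT 4 sat among RORasg/sg 2, 3 and 4 (difference 0.70, SE 0.517, limma adjusted p = 0.449). The other Psmb3 probe gave -0.03. Psmb1 (-0.10) and Psmb4 (0.01) had differences near 0.

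All 6 ATPases of the 19S base, the motor that threads substrates into the core, had a lower mean in RORasg/sg hearts, with a median of -1.04. Psmc2 read 4.35, 2.10, 1.39 and 1.60 in RORasg/sg hearts and 3.82, 4.00, 4.27, 3.16 and 4.43 in WT hearts. RORasg/sg 2, 3 and 4 were below every WT heart and RORasg/sg 1 was above 4 of the 5. The difference was -1.57, 2.98-fold less in RORasg/sg (SE 0.583, limma adjusted p = 0.412).

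Psmc1 read 4.15, 1.36, -0.39 and -1.90 in RORasg/sg hearts and 3.39, 3.52, 4.01, 0.31 and 3.81 in WT hearts. WT 4 lay with the dimmer RORasg/sg hearts, more than 3 log2 units under the next WT heart. The difference was -2.20 (SE 1.11, limma adjusted p = 0.418). Psmc4 (-1.30, and -1.93 on its other probe) and Psmc3 (-0.78) followed. Psmc5 (-0.19) and Psmc6 (-0.09) lay near 0 on the probes used. The other Psmc5 probe, well above background on every array, gave -0.88, and the mean of both gave -0.54. Psmc6 read 3.70 to 4.91 in RORasg/sg and 4.12 to 4.31 in WT hearts.

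Of the 11 non-ATPase subunits of the cap, 4 had a higher and 7 a lower mean (median -0.57). Psmd2, a scaffold that docks ubiquitin shuttle proteins, read 4.03, 2.66, 2.60 and 0.70 in RORasg/sg hearts and 3.84, 4.28, 4.34, 3.15 and 4.35 in WT hearts. The 3 dimmer RORasg/sg hearts were below all WT hearts and RORasg/sg 1 was within their range. The difference was -1.50 (SE 0.587, limma adjusted p = 0.418), and the other Psmd2 probe, well above background on every array, gave -2.13.

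Psmd14, the deubiquitinase that strips ubiquitin from substrates at the cap, read 3.06, 3.10, 0.39 and -0.13 in RORasg/sg hearts and 3.18, 3.29, 3.31, 2.95 and 3.61 in WT hearts. RORasg/sg 3 and 4 were low, whereas RORasg/sg 1 and 2 lay at the lower end of the WT values. The difference was -1.66 (SE 0.671, limma adjusted p = 0.418), and the other Psmd14 probe, well above background on every array, gave -0.02.

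Psmd1, the other large scaffold of the base, had the lowest difference of all members (-3.05, SE 1.62) and also one of the widest spreads, from -6.49 to 3.30 in RORasg/sg and from -1.60 to 2.78 in WT hearts. Its probe cleared background in 3 of 4 RORasg/sg hearts, and the difference was -1.35 without RORasg/sg 4 and -1.76 with normexp background correction, where other members were lower. Psmd13 (-0.84), Psmd7 (-0.79), Psmd3 (-0.57) and Psmd11 (-0.37) were on the lower side. The other Psmd7 probe gave -2.23, but cleared background in 3 of 4 RORasg/sg hearts. The ubiquitin receptor Psmd4 (0.05), Psmd6 (0.03) and Psmd8 (0.08) were near 0, and Psmd12 was at 0.60 (-0.57 with the mean of its 3 probes).

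The 3 chaperones that assemble the ATPase ring each had a lower mean in RORasg/sg hearts, but the probes of Psmd9 and Psmd10 cleared background in few of those hearts and passed the filter mainly through WT. With normexp background correction the differences were -1.43 for Psmd5, -0.49 for Psmd9 and -0.50 for Psmd10. Psmd5 read 1.68, -1.92, -4.91 and -4.45 in RORasg/sg hearts and 0.73, 0.95, 0.80, -2.29 and 1.24 in WT hearts (difference -2.68, SE 1.21, limma adjusted p = 0.418). RORasg/sg 1 was the highest heart of all, and WT 4 was lower than RORasg/sg 2.

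Psmd9 read 0.87, -6.90, -7.62 and -7.02 in RORasg/sg hearts and -0.86, -1.33, -0.71, -7.68 and -0.59 in WT hearts. The 4 dimmer arrays gave the 4 lowest values, and the probe rose well above background in 1 of 4 RORasg/sg and 4 of 5 WT hearts. The difference was -2.93 (SE 1.83, limma adjusted p = 0.422), whereas the other Psmd9 probe gave 0.32. Psmd10 (gankyrin) differed by -1.94 (SE 1.27), with values from -6.07 to 1.26 in RORasg/sg and from -0.99 to -0.16 in WT hearts, and its probe cleared background in 2 of 4 RORasg/sg hearts.

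Of the 4 activator genes, 2 had a higher and 2 a lower mean on the probes used (median -0.05). Psme2, a subunit of the interferon-inducible PA28 ring, read 3.54, 5.60, 5.03 and 5.04 in RORasg/sg hearts and 3.69, 3.76, 3.82, 5.02 and 3.90 in WT hearts. RORasg/sg 1 was the lowest heart and WT 4 matched RORasg/sg 3 and 4, for a difference of 0.76 (SE 0.456, limma adjusted p = 0.42). The other Psme2 probe, also well above background on every array, gave -0.91, and the mean of both gave -0.07. Its partner Psme1 differed by 0.03 (SE 0.297).

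Psme3, which forms the nuclear activator ring, read 2.15, 0.99, 1.98 and 1.81 in RORasg/sg hearts and 1.87, 1.88, 2.09, 1.38 and 2.18 in WT hearts (difference -0.15, SE 0.408, limma adjusted p = 0.827). Psme4, the PA200 activator, differed by -0.12 on the probe used and by -1.95 with the mean of its 3 probes, and Psmf1, encoding the regulator PI31, by -0.02 (SE 0.489), with -1.74, 0.46, -0.59 and -0.66 in RORasg/sg hearts and -0.83, -0.79, -0.74, -0.56 and -0.12 in WT hearts. RORasg/sg 2 was the lowest heart for Psme3 and the highest for Psmf1, whose RORasg/sg values extended past the WT values on both sides.

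Of the 4 chaperones that assemble the 20S core, Psmg2 had the smallest p of all 48 members, with 0.30, -3.53, -5.82 and -3.51 in RORasg/sg hearts and -0.42, -0.50, -0.17, -0.14 and -0.55 in WT hearts. WT 4 lay with the other WT hearts here, unlike in Psmd5 and Psmd9, while RORasg/sg 1 was above all of them. The difference was -2.78, 6.87-fold less in RORasg/sg (SE 0.924, limma adjusted p = 0.395), and the probe cleared background in 3 of 4 RORasg/sg hearts. The other Psmg2 probe gave -0.55, and with normexp background correction the difference was -1.27.

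Psmg4 had the highest difference of all members (0.84, SE 0.693, limma adjusted p = 0.481), with 0.57, 2.64, 3.55 and 3.19 in RORasg/sg hearts and 0.85, 1.43, 1.14, 3.47 and 1.35 in WT hearts. WT 4 was within the range of RORasg/sg 2, 3 and 4. Psmg1 (-0.76) and Psmg3 (-0.30) completed the class. The name-only match Psmc3ip, at -1.52, -0.94, -1.32 and -0.72 in RORasg/sg hearts and -0.96, -1.31, -1.29, -1.09 and -1.29 in WT hearts, differed by 0.07 (SE 0.387).

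Probes of one gene often disagreed. Of the 50 name-matched genes, 17 had more than 1 probe, and in 10 of these the differences of the probes were more than 1 log2 unit apart. In 8 of the 17 the probes had opposite signs, including Psmf1, whose probes all lay within 0.11 of each other. The largest gaps were in Psme4 (-0.12 on the probe used, -2.24 and -3.48 on the others), Psmd9 (-2.93 and 0.32) and Psmd12 (0.60, with 0.24 and -2.54 on the others). Of 21 other probes, 13 gave a lower difference than the probe used, which is the one with the highest mean over the arrays. With the mean of all kept probes the constitutive median was -0.57.

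**Figure D5:**
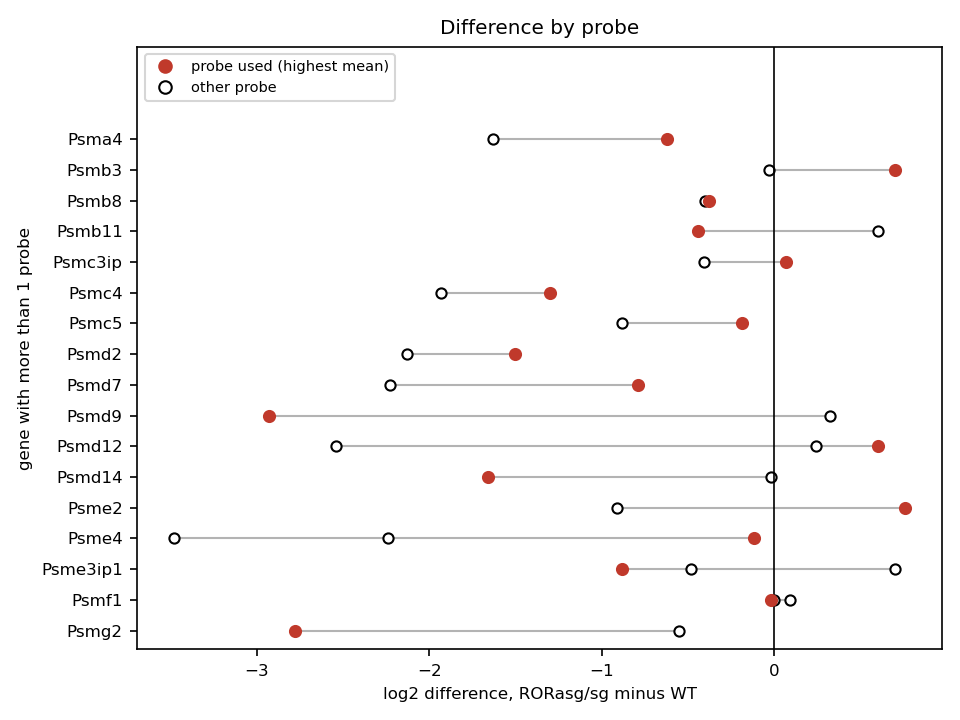
Log2 difference (RORasg/sg minus WT, x axis) of every probe of the 17 name-matched genes with more than 1 probe (y axis), filled for the probe used and open for the others. Psme4, Psmd9 and Psmd12 have the widest gaps between probes, while the 2 probes of Psmb8 nearly coincide.

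Other genes of the pathway were taken from 5 lists, and 0 of their tested members passed the threshold. The counts of each list are to be read beside the shares over all genes, 66.6% higher and 33.4% lower in mean. At an unadjusted p under 0.05 in limma those shares were 4.94% higher and 6.62% lower. Among 12 tested proteasome partners, 9 had a higher and 3 a lower mean (median 0.35), with 1 lower at an unadjusted p under 0.05. That gene was Usp14, a deubiquitinase bound to the cap, with 1.82, -2.93, -3.08 and -3.76 in RORasg/sg hearts and 1.81, 1.61, 1.80, 1.36 and 1.61 in WT hearts (difference -3.63, SE 0.938, limma adjusted p = 0.368). RORasg/sg 1 was at the level of the WT hearts, WT 4 among them, and the other 3 RORasg/sg hearts were far below. Zfand2a, an arsenite-inducible proteasome-binding protein, differed by 1.40, Sem1, a small cap subunit, by 0.64, and Txnl1, a cap-bound thioredoxin, by 0.63 (-0.58 with the mean of its probes).

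In the NRF1 list, 7 of 8 tested genes had a higher mean (median 0.45), which is near the all-gene median. Nfe2l1 itself read 3.04, 5.02, 4.56 and 4.78 in RORasg/sg hearts and 3.55, 3.66, 3.57, 4.81 and 3.82 in WT hearts, with WT 4 among the dimmer RORasg/sg hearts (difference 0.47, SE 0.459, limma adjusted p = 0.539). Mafk, a small partner of these factors, differed by -2.26 (SE 0.813, limma adjusted p = 0.407), Syvn1 by 0.46 and Ngly1, the enzyme that deglycosylates NRF1, by 0.44.

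Ubiquitin and shuttle genes had 5 higher and 10 lower means of 15 tested, with a median of -0.37. Uba1, the main ubiquitin-activating enzyme, read 1.53, -0.24, -4.81 and -4.54 in RORasg/sg hearts and 1.64, 0.97, 1.26, 2.61 and 1.03 in WT hearts (difference -3.52, SE 1.15, limma adjusted p = 0.395). Averaging its probes gave -1.38. RORasg/sg 3 and 4 were far the lowest, RORasg/sg 2 was also below every WT heart, and WT 4 was the highest. Ubb, a polyubiquitin gene, differed by -1.08, and Nploc4, a cofactor of the segregase Vcp, by -1.39.

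Of 8 tested muscle ubiquitin ligases, 4 had a higher and 4 a lower mean (median -0.25), with 1 gene each way at an unadjusted p under 0.05. Trim55 (MURF2) read -2.41, -2.27, -2.05 and -1.64 in RORasg/sg hearts and -3.13, -3.72, -2.88, -2.76 and -3.09 in WT hearts. All 4 RORasg/sg hearts were above all 5 WT hearts, as in 1.12% of all genes (difference 1.02, SE 0.393, limma adjusted p = 0.417). Fbxo32 (atrogin-1), a ligase of muscle atrophy, differed by -1.47 (SE 0.645), but by -0.09 (limma adjusted p = 0.894) with quantile normalization. Nedd4 differed by 0.99 (-0.23 with the mean of its probes) and Mdm2 by -0.80.

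Among 14 tested genes of class I antigen presentation and the interferon gamma response, 9 had a higher and 5 a lower mean (median 0.69), with 2 on the lower side and 0 on the higher side at an unadjusted p under 0.05. These were Tapbp (tapasin), at -1.39 (SE 0.616), and Ifngr2, a chain of the interferon gamma receptor, at -2.10 (SE 0.936), each with limma adjusted p = 0.418. Tapbp was at -0.12 with the mean of its probes. H2-K1, a class I heavy chain, differed by 1.09 (SE 0.508) and its light chain B2m by 0.72 (SE 0.336), and in both RORasg/sg 1 was below every WT heart and the other 3 RORasg/sg hearts were above every one.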

How the data were processed

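The arrays (design 014868) were read with Feature Extraction 12.0.0.7, per the file headers. Version 12 is also what the submitters' processing notes give. The deposited intensity, gProcessedSignal, already had background removed by that software, per the file headers, and was on a linear scale without scaling across arrays. The authors' value table repeated it. Here outlier spots were dropped (758 over 9 arrays), spots of a probe were averaged as log2, and the 75th percentile of each array was subtracted. A probe was kept if it stood well above background on 4 or more of 9 arrays (36405 of 41174), and each gene was read from its probe of highest mean. Accessions were named through a RefSeq table of GRCm38.p6 (28223 probes, 19096 symbols), and others kept their accession.

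Groups were compared with limma 3.58.1 (eBayes with trend, Benjamini-Hochberg) in R 4.3.3, tested on simulated data. Figures used matplotlib 3.10.9. The labels number the mice but do not describe how they were sampled, so p-values measure the spread between these hearts, and precision is limited by how many arrays there are. Members, lists and alternatives (scaling, background, filters, probe rule, blocks, brightness, left-out arrays) were chosen with earlier results of these data known. Values in every heart are given for the 6 catalytic subunits and the 2 members of smallest p in each other role class. Up to 4 genes of smallest p were named in each pathway list. The remaining members are given by their difference, to account for each class.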

Additional observations from a re-analysis of the deposited data

Results flagged for a closer look

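In 17 of the 100 groups of hearts examined (50 name-matched genes in each genotype), 1 heart stood far from the others of its genotype by Dixon's criterion. Chance alone flags about 1 group in 20 where groups are independent. These groups were read on the same arrays and are not, so the count was not tested against that rate.

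Among RORasg/sg hearts, RORasg/sg 1 stood apart in Psmb7 (4.28, next 0.67), Psmd9 (0.87, next -6.90) and Psmb10 (3.32, next 4.91), and RORasg/sg 4 in Psmb9 (-0.07, next 1.69).

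The other 13 were all WT 4. It was the highest WT heart in Psma1 (6.19), Psmb3 (5.89), Psmb4 (6.32), Psmb10 (5.54), Psmd13 (2.03), Psme2 (5.02) and Psmg4 (3.47), and the lowest in Psmc1 (0.31), Psmd1 (-1.60), Psmd5 (-2.29), Psmd6 (1.23), Psmd9 (-7.68) and Psme3ip1 (-1.76). WT 4 was the 1 WT array with a 75th percentile under 500, and the part of array brightness in these values was not tested.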

How the results depend on the processing

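Over 26 alternatives, the count of called members was 0 except with array weights (26 of 48, 7 higher and 19 lower), in the 5 brighter arrays (3) and among the fits without 1 array (0 to 17, the 17 without RORasg/sg 1). All 17 were also called with array weights, in the same direction, and those weights gave RORasg/sg 1 the lowest weight (0.101). In the 5 brighter arrays Psmc3 (1.96) and Psmd9 (1.74) were called with the sign turned. The cause was not tested.

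The number of all genes called, 1 in the fit reported, was 2 with quantile normalization, 3 without scaling, 9 with the replicate block, 15132 with array weights, 1189 in the 5 brighter arrays and 0 to 10391 without 1 array. It was 0 with normexp background, with probes above background on all arrays, with the mean of probes, with the slide block, within slide 1, within slide 2 and in the 4 dimmer arrays. The constitutive median (-0.37) was -0.94 without scaling (all genes -0.17), -0.71 with array weights, 0.06 within slide 1, -0.78 within slide 2 and 0 in the 5 brighter arrays (all genes -0.34). It moved by less than the replicate SD (0.292) otherwise, lying between -0.63 and -0.33 when 1 array was left out. The immunoproteasome median moved by less than its replicate SD (0.632) throughout. Of the 48 members, 27 turned sign in the 5 brighter arrays, 16 with the brightness covariate, 15 within slide 1, 13 in the 4 dimmer arrays and at most 8 elsewhere.

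The labels do not say whether replicate numbers pair the hearts. Deviations of same-numbered hearts correlated across genes by 0.0464, -0.00692, -0.331 and 0.392. Same-numbered hearts also shared a slide, so such correlations cannot settle it. The replicate block called 0 members, as did the fit reported, and 9 of all genes. Fits within a slide or a brightness class rest on 4 or 5 arrays. Psmd9, Psmb11, Psmd10, Psmd1 and Psmg2 were not well above background on every RORasg/sg array, which limits their differences.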

Other observations

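Markers of other cell types were read beside the proteasome genes, with 0 of their tested genes past the threshold in limma. Among all genes, 66.6% were higher and 33.4% lower in mean. At an unadjusted p under 0.05 in limma, 4.94% of all genes were higher and 6.62% lower. The 6 fibroblast markers summed to 86.3 to 223 in RORasg/sg hearts and 61 to 103 in WT hearts, with 5 of 6 higher in mean and 2 of 6 higher at an unadjusted p under 0.05. The 6 endothelial markers summed to 24.9 to 63.8 in RORasg/sg and 19.3 to 36.6 in WT hearts, although 4 of 6 were lower in mean, 3 of them at an unadjusted p under 0.05. All 8 cardiomyocyte markers were lower in mean in RORasg/sg hearts (median -1.14), and their median deviation in RORasg/sg 1 was -0.01. Of the 5 smooth muscle and pericyte markers, 3 were lower and 2 higher in mean (median -1.22), and 3 reached an unadjusted p under 0.05, namely Acta2 (-1.28) and Myh11 (-1.22) on the lower side and Cspg4 on the higher side. Their sums were 49.2 to 86.6 in RORasg/sg and 52.1 to 98.3 in WT hearts. Of 3 tested blood markers, 1 was higher in mean, Hbb-bt (0.33), and 2 were lower, Hba-a1 (-0.62) and Alas2. Their sums were 26.4 to 65.3 in RORasg/sg and 24 to 57.5 in WT hearts. Alas2, the heme synthesis enzyme of red cells, read 1.96, -4.26, -3.54 and -4.70 in RORasg/sg hearts and 1.42, 1.68, 1.73, 1.97 and 2.13 in WT hearts (difference -4.42, SE 1.11, limma adjusted p = 0.353). Its probe was above background in 3 of 4 RORasg/sg hearts. The 4 adipocyte markers summed to 72.9 to 226 in RORasg/sg and 97.3 to 219 in WT hearts, with 3 of 4 higher in mean. The part of these markers in the proteasome values was not tested.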
